A study of Callithrix jacchus with 4 samples.

Results

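The fragile X gene family and its closest protein partners were examined in newborn marmoset brain. The set consists of FMR1, its autosomal paralogs FXR1 and FXR2, and the partner genes CYFIP1, CYFIP2, NUFIP1, NUFIP2 and CAPRIN1, taken by gene symbol. All 8 genes have a row among the 35205 genes counted, and all 8 were among the 16956 genes abundant enough to be tested. At postnatal day 5, 2 libraries were made from common marmosets (Callithrix jacchus) in which FMR1 had been mutated with CRISPR/Cas9, and 2 from wild-type marmosets labelled as controls. The study describes forebrain samples with cortex, striatum and hippocampus, while each library is labelled only as brain. The labels do not state the sequence change made in FMR1, the number of altered alleles or the sex of each animal. Nothing states that the libraries of a group came from separate animals. The spread behind each edgeR p-value is therefore one between libraries, drawn in large part from other genes, and may be technical.

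The product of FMR1 is FMRP, which binds RNA, travels with mRNAs in neurons, associates with polyribosomes and holds back the translation of many synaptic messages. Its loss, usually through silencing of the X-linked gene, causes fragile X syndrome. FXR1 and FXR2 encode close relatives with the same kinds of RNA-binding domains, and the 3 proteins bind each other. CYFIP proteins link FMRP to the translation machinery and to the WAVE complex, which drives branching of actin filaments. NUFIP1, NUFIP2 and CAPRIN1 bind FMRP in the nucleus or in cytoplasmic granules. Compensation at the RNA level would appear as a rise of FXR1 or FXR2 in the mutants, and the comparison asks for it. In bulk tissue such a rise could not be told apart from a change in the mix of cells.

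Libraries held 13153036 and 13455702 counts in FMR1 mutant replicates 1 and 2, and 13256200 and 12331639 counts in wild-type replicates 1 and 2. The 8 genes took 0.0993% and 0.107% of these counts in the mutant libraries, and 0.105% and 0.0994% in the wild-type libraries. Neuronal markers were abundant everywhere, with 10 of them summing to 7556 and 7314 CPM (counts scaled to library size) in the mutant and 7503 and 7299 CPM in the wild-type libraries. Of these 10, GAD2 and the neurofilament genes NEFL and NEFM fell (3 of 10, median log2 fold change -0.11). Here fell and rose mean called lower or higher in the mutants at an edgeR adjusted p under 0.05. Of all genes tested, 1.57% fell and 0.661% rose. Markers of mature oligodendrocytes summed to 1393 and 1341 CPM in the mutant and 3652 and 3572 CPM in the wild-type libraries, and all 10 fell. Markers of oligodendrocyte precursors (6) summed to 469 and 483 CPM in the mutant and 591 and 629 CPM in the wild-type libraries, and 2 fell. Astrocyte markers (6) summed to 3069 and 3411 against 4372 and 4214 CPM, mutant libraries first, and 1 fell. In the same order, microglial markers (8) summed to 125 and 85.5 against 160 and 169 CPM, and 3 fell. Of 6 newborn neuron markers analysed, 3 rose, and their sum was 2769 and 2756 CPM in the mutant and 2333 and 2018 CPM in the wild-type libraries. Choroid plexus markers (4) stood high in mutant replicate 1, at 118 CPM against 20.3 to 26.4 CPM in the other libraries. Thalamic markers (4) stood high in wild-type replicate 1, at 172 CPM against 55.0 to 63.7 CPM elsewhere. Markers of cortex (6), striatum (7) and hippocampus (4) summed to 980 and 1038, 347 and 440, and 180 and 172 CPM in the mutant libraries, and to 878 and 905, 444 and 412, and 162 and 176 CPM in the wild-type libraries, with none passing the edgeR test. In bulk tissue a change in the number of cells of a type and a change in RNA per cell cannot be told apart.

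None of the 8 genes passed the test between FMR1 mutant and wild-type libraries, where 2.23% of all tested genes did at an adjusted p of 0.05 (quasi-likelihood test of edgeR, Benjamini-Hochberg adjusted over all genes; 0.661% were called higher and 1.57% lower). No member reached an unadjusted p under 0.05 either (0 of 8, against 13.4% of all genes tested), and 0 of 8 passed by DESeq2 or limma-voom. Log2 fold changes, mutant over wild-type, ran from -0.15 for CYFIP2 to 0.28 for FMR1, with a median of 0.11 beside a median of -0.0040 over all genes tested. The members' median was 0.03 without mutant replicate 2 and 0.06 without wild-type replicate 2. In FXR1, NUFIP1 and CAPRIN1 the mutant libraries both lay above the wild-type libraries, and in CYFIP2 and NUFIP2 they both lay below. These are 3 of 8 genes without overlap on the higher side, where 21.4% of all genes tested were, and 2 of 8 on the lower side, where 21.8% were. Together they make 5 of 8, beside 43.1% of all genes.

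**Figure D1:**
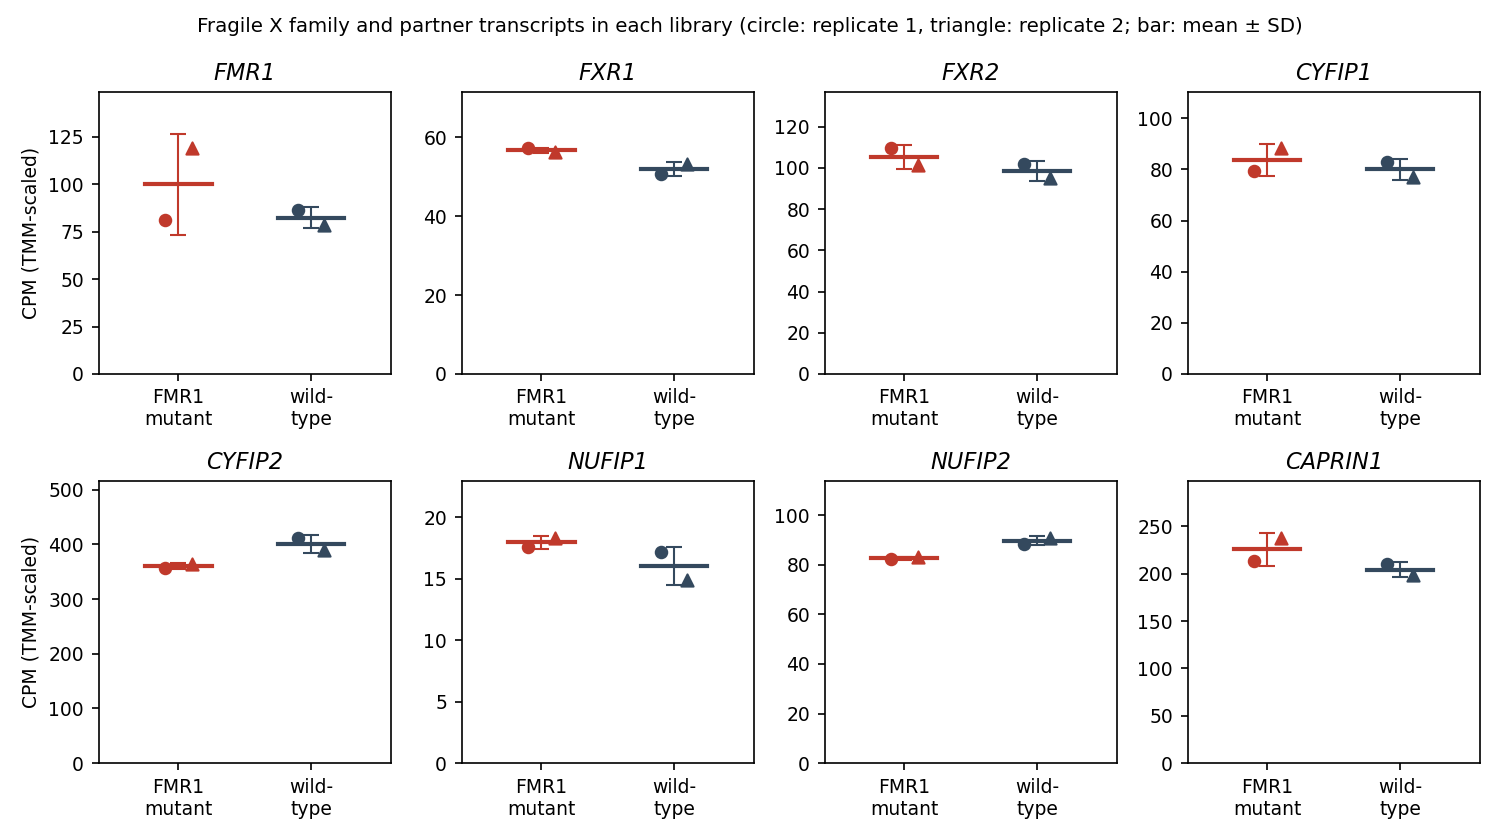
Abundance of each of the 8 genes in CPM scaled by the trimmed mean of M-values (vertical axes from 0, each panel with its own scale) in 2 FMR1 mutant and 2 wild-type libraries. Circles are replicate 1, triangles replicate 2, and bars the mean with its SD; the triangle of FMR1 mutant replicate 2 stands at 119 CPM, apart from the other 3 FMR1 values between 78.6 and 86.3 CPM.

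FMR1 RNA was present at about the wild-type level in the first mutant library and above it in the second. It was counted 1062 and 1603 times in FMR1 mutant replicates 1 and 2, and 1144 and 966 times in wild-type replicates 1 and 2. Scaled abundance was 81.1 and 119 CPM in the mutant libraries and 86.3 and 78.6 CPM in the wild-type libraries. The groups overlap, since mutant replicate 1 lies between the wild-type libraries while mutant replicate 2 lies above all others. On the log2 scale FMR1 was 0.28 higher in the mutants (SE 0.15, adjusted p = 0.445 by edgeR), with a 95% interval of -0.03 to 0.59, and did not pass the test. The estimate became -0.02 when mutant replicate 2 was left out (adjusted p = 0.972) and 0.53 when mutant replicate 1 was (adjusted p = 0.0578). The sequence change in FMR1 is not stated, so its effect on the amount of RNA is not known. These counts therefore do not check the genotype labels, and they carry no information on FMRP protein.

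The difference between the mutant libraries was larger than for most genes. FMR1 differed by 0.55 on the log2 scale between mutant replicates 2 and 1, and only 1.82% of the genes with at least 10 CPM differed by as much in either direction. Counting error on the FMR1 counts is about 3.07% in mutant replicate 1 and 2.50% in mutant replicate 2. The wild-type libraries differed by 0.13 on the same scale (replicate 1 higher), a size that 50.6% of such genes reached. Among the 7 other genes the mutant libraries differed by 0.16 or less, with CAPRIN1 at 0.16, CYFIP1 at 0.15 and FXR2 at -0.11 (replicate 2 over replicate 1). In mutant replicate 2 the summed markers of mature oligodendrocytes, choroid plexus and microglia were the lowest of the 4 libraries, and those of neurons and astrocytes lay within the range of the others. Cortical markers were highest there, at 1038 CPM against 878 to 980 CPM in the other libraries. Their part in the FMR1 value was not tested.

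FMR1 is X-linked, and the neighbouring genes gave a mixed picture of the same library. RefSeq (assembly calJac240_pri) places 368 genes with at least 10 CPM on the X chromosome. Over these the median difference between mutant replicates 2 and 1 was -0.01 on the log2 scale. Of the 368, 2.17% were higher in replicate 2 by at least as much as FMR1, against 1.09% of all genes with at least 10 CPM. FMR1 itself is counted in both shares, and the share on the X chromosome rests on few genes. AFF2, the next tested gene on one side and the gene of another X-linked intellectual disability, had 55.3 and 76.2 CPM in mutant replicates 1 and 2, against 72.3 and 63.7 CPM in wild-type replicates 1 and 2. In the annotation 2 genes lie between AFF2 and FMR1, and 23 between FMR1 and SLITRK4 on the other side, which encodes a neuronal transmembrane protein. SLITRK4 had 11.9 and 20.8 CPM in the mutant libraries, against 15.4 and 19.5 CPM in the wild-type libraries. Both were thus higher in mutant replicate 2 than in mutant replicate 1, but their groups overlap. IDS, a lysosomal sulfatase gene on the same side as AFF2, had 777 and 785 CPM in the mutant and 820 and 847 CPM in the wild-type libraries, and SLITRK2 had 69.1 and 76.4 against 71.9 and 82.6 CPM. None of these 4 named neighbours passed the test (edgeR adjusted p between 0.779 for IDS and 0.938 for AFF2). The other tested neighbours are 2 unnamed loci with 1.71 to 5.19 CPM, neither of which passed.

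**Figure D2:**
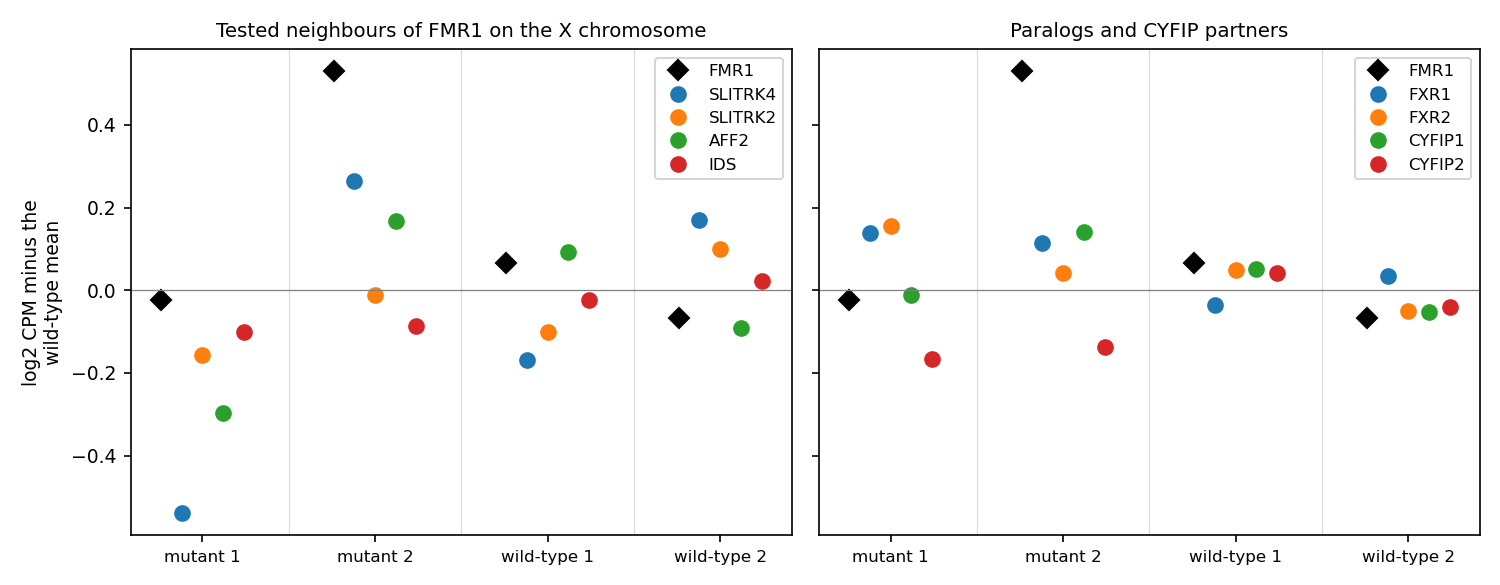
Log2 CPM of each gene in each library after subtracting its own wild-type mean (vertical axis), for FMR1 (black diamonds) beside 4 tested neighbours on the X chromosome (left) and beside its paralogs and the CYFIP genes (right). FMR1 in mutant replicate 2 lies at 0.53, while FXR1, FXR2 and CYFIP1 lie at 0.11, 0.04 and 0.14 and CYFIP2 at -0.14 in that library.

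Genes with the FMR1 profile across the 4 libraries were picked by the smallest root mean square distance between centred log2 CPM values, among 10261 genes with a symbol and at least 10 CPM. The 5 nearest were ZNF283 (distance 0.03), PALS2 (0.04), CCNT2 (0.05), SYN3 (0.06) and LPL (0.06). ZNF283 encodes a zinc finger protein, PALS2 a membrane scaffold, CCNT2 a cyclin of the transcription elongation factor P-TEFb, SYN3 a synapsin of synaptic vesicles and LPL a lipoprotein lipase. SYN3, for example, had 150 and 217 CPM in mutant replicates 1 and 2, against 159 and 131 CPM in wild-type replicates 1 and 2. With 4 libraries such likeness is weak, and 49 genes lay within 0.1 of FMR1. No family member or partner was among the nearest, with CAPRIN1 ranked 406, CYFIP1 735 and FXR1 2763.

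The paralogs FXR1 and FXR2 showed small differences that did not pass. FXR1, whose protein binds RNA in brain and muscle, was counted 749 and 758 times in mutant replicates 1 and 2, and 672 and 654 times in wild-type replicates 1 and 2. That is 57.2 and 56.2 CPM in the mutant libraries against 50.7 and 53.2 CPM in the wild-type libraries, with no overlap between the groups. The estimated difference of 0.13 on the log2 scale (SE 0.13, edgeR adjusted p = 0.751), or 9.14% more RNA, came with a 95% interval from 0.906-fold to 1.32-fold.

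FXR2, the paralog best known from brain, was counted 1434 and 1364 times in the mutant libraries and 1349 and 1166 times in the wild-type libraries. Its abundance was 109 and 101 CPM in mutant replicates 1 and 2, and 102 and 94.9 CPM in wild-type replicates 1 and 2. The groups overlap, as mutant replicate 2 lies just below wild-type replicate 1. For FXR2 the log2 fold change came to 0.10 (SE 0.12, edgeR adjusted p = 0.798), with a 95% interval from 0.902-fold to 1.27-fold. Leaving out any 1 library kept both estimates above 0, between 0.09 and 0.16 for FXR1 and between 0.04 and 0.16 for FXR2.

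The estimate at which a gene would have been called follows from its SE and from the largest unadjusted p that was called, 0.00111. At its SE, FXR1 would have been called from an estimate of 1.39-fold and FXR2 from an estimate of 1.35-fold, while FMR1, with its wider spread, needed 1.48-fold. Both paralogs' intervals end below these sizes, but a true change of that size would not be called each time. A true rise of up to 1.32-fold in FXR1 or 1.27-fold in FXR2 lies within the interval and could have been missed with this number of libraries.

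**Figure D3:**
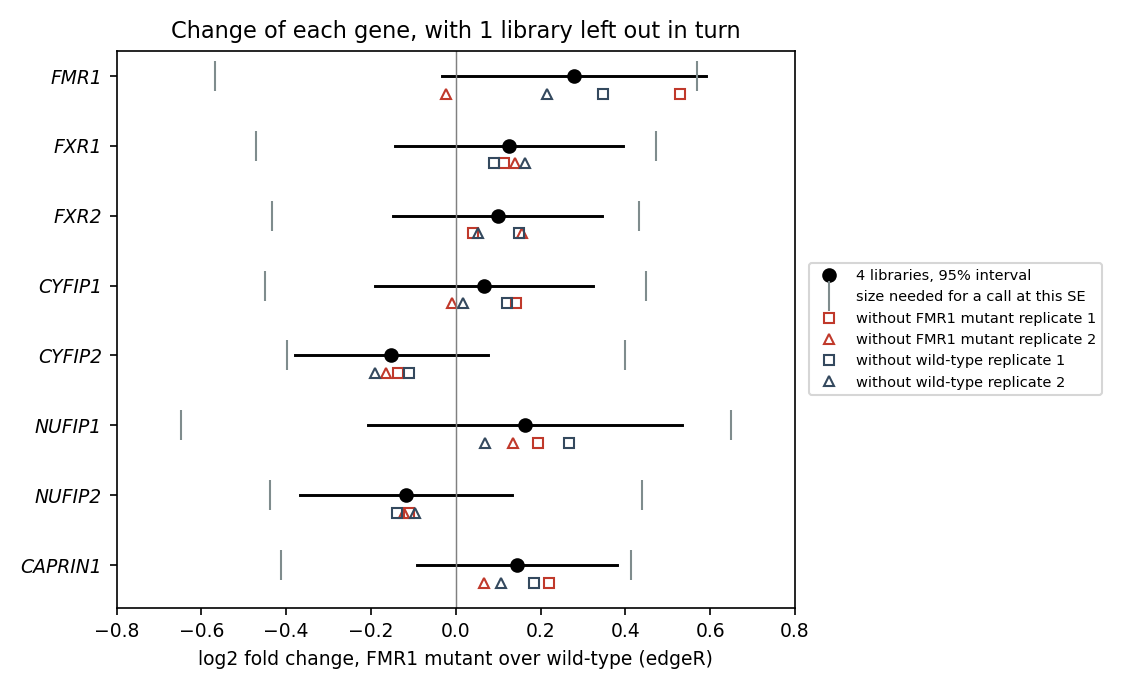
Log2 fold change of each gene, FMR1 mutant over wild-type (horizontal axis), with its 95% interval (black), the size needed for a call at its SE (grey ticks), and the estimate with 1 library left out (open symbols, red for mutant and dark blue for wild-type libraries). Every interval includes 0, and the FMR1 estimates spread from -0.02 to 0.53.

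Within a library the balance between family members does not depend on scaling, and it was compared as ratios of counts. FXR1 had 0.705 and 0.473 counts per FMR1 count in mutant replicates 1 and 2, against 0.587 and 0.677 in wild-type replicates 1 and 2. FXR2 had 1.35 and 0.851 counts per FMR1 count in the mutant and 1.18 and 1.21 in the wild-type libraries. Mutant replicates 1 and 2 thus lie on opposite sides of both wild-type libraries in these ratios. The mean log2 ratio differed by -0.13 for FXR1 over FMR1 and by -0.15 for FXR2 over FMR1 (mutant minus wild-type), less than the SD of 0.41 and 0.47 between the mutant libraries (exact two-sided permutation p = 1 for each). Without mutant replicate 2 these differences were 0.16 and 0.18, and without mutant replicate 1 they were -0.42 and -0.49, so their direction rests on mutant replicate 2. Between the paralogs themselves, FXR2 stood at 1.91 and 1.80 counts per FXR1 count in the mutant and 2.01 and 1.78 in the wild-type libraries (difference -0.03, exact permutation p = 1; 0.06 without wild-type replicate 1, 0.02 without mutant replicate 2 and -0.11 without wild-type replicate 2). With 2 libraries against 2 the smallest p this test allows is 0.333, and 4 ratios were compared, so none could pass.

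As shares of the summed counts of the 3 family genes, FMR1 took 32.7% and 43.0% in mutant replicates 1 and 2, against 36.1% and 34.7% in wild-type replicates 1 and 2. FXR1 took 23.1% and 20.3% in the mutant and 21.2% and 23.5% in the wild-type libraries. FXR2 took 44.2% and 36.6% in the mutant and 42.6% and 41.9% in the wild-type libraries. The exact (Clopper-Pearson) 95% interval of the FMR1 share was 41.4% to 44.6% in mutant replicate 2 and 31.1% to 34.4% in mutant replicate 1. The intervals cover counting error only. Summed over the paralogs alone, abundance was 167 and 157 CPM in the mutant libraries and 152 and 148 CPM in the wild-type libraries.

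**Figure D4:**
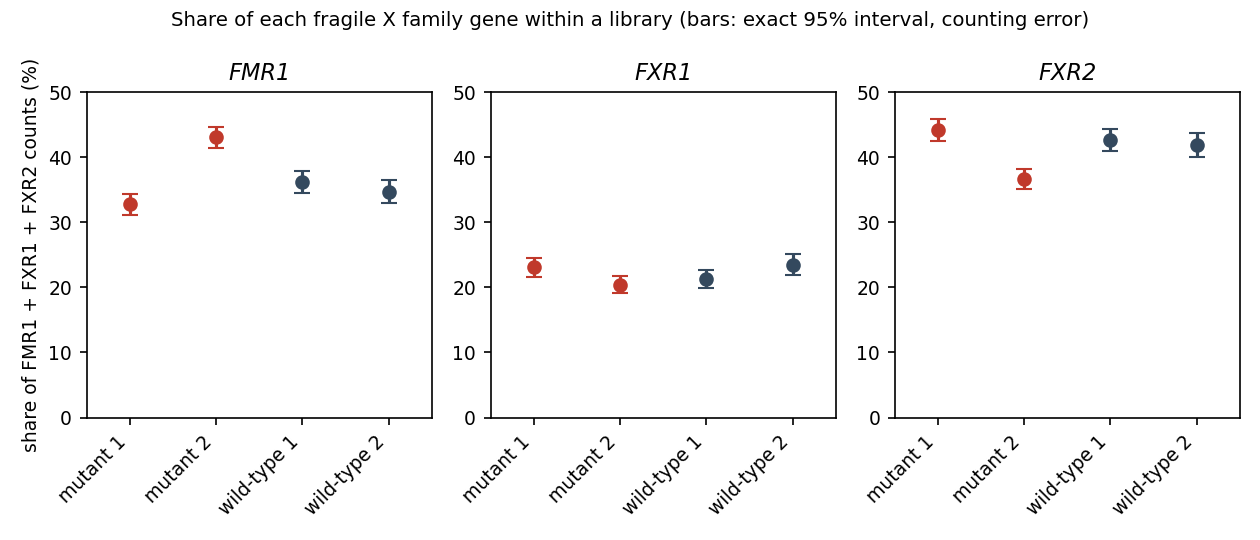
Share of FMR1, FXR1 and FXR2 in their summed counts (percent, vertical axis) in each library, with exact 95% intervals for counting error. Mutant replicate 2 stands apart with 43.0% FMR1 and 36.6% FXR2, while the other 3 libraries hold 32.7% to 36.1% FMR1 and 41.9% to 44.2% FXR2.

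Neither CYFIP gene, whose products carry FMRP's contacts to eIF4E and to actin, passed the test. CYFIP1, which binds FMRP and the cap-binding factor eIF4E, was counted 1039 and 1189 times in the mutant and 1099 and 947 times in the wild-type libraries. Its abundance of 79.3 and 88.2 CPM in the mutant libraries overlaps 82.9 and 77.1 CPM in the wild-type libraries. CYFIP1 differed by 0.07 on the log2 scale (SE 0.13, edgeR adjusted p = 0.890), and by -0.01 without mutant replicate 2.

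CYFIP2, whose protein also binds FXR1 and FXR2 and which is enriched in neurons, was counted 4675 and 4914 times in the mutant and 5467 and 4783 times in the wild-type libraries. At 357 and 365 CPM it was lower in the mutant libraries than in either wild-type library, at 412 and 389 CPM. CYFIP2 differed by -0.15 on the log2 scale (SE 0.11, edgeR adjusted p = 0.613; 95% interval from -0.38 to 0.07), which did not pass, and stayed between -0.19 and -0.11 with any 1 library left out. Among the 10 neuronal markers 3 were called lower and 0 higher by edgeR, beside 1.57% and 0.661% of all genes tested. Their median log2 fold change was -0.11. Their sum was nearly the same in both groups, at 7556 and 7314 CPM in the mutant and 7503 and 7299 CPM in the wild-type libraries. The part of neurons in the CYFIP2 value was not tested.

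CYFIP1 had 0.222 and 0.242 counts per CYFIP2 count in mutant replicates 1 and 2, against 0.201 and 0.198 in wild-type replicates 1 and 2. Both mutant values are above both wild-type values. Among single genes 43.1% of those tested had no overlap between the groups, and no such share was computed for ratios. The difference in mean log2 ratio was 0.22, beside an SD of 0.09 between the mutant and 0.02 between the wild-type libraries. Each SD comes from only 2 libraries. The exact two-sided permutation p was 0.333, the smallest that 2 against 2 libraries can give, and adjusted over the 4 ratios it was 1.

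The remaining partners did not pass either. NUFIP1, a zinc finger protein that helps to assemble small nucleolar ribonucleoproteins, had the fewest counts and so carried the largest counting error, between 6.36% and 7.39%. It was counted 230 and 247 times in the mutant and 227 and 183 times in the wild-type libraries, or 17.6 and 18.3 against 17.1 and 14.9 CPM. The groups did not overlap, and the log2 fold change of NUFIP1, 0.16 (SE 0.18), had an edgeR adjusted p of 0.769. It was 0.07 without wild-type replicate 2 and 0.27 without wild-type replicate 1.

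NUFIP2, a cytoplasmic RNA-binding protein, was counted 1077 and 1120 times in the mutant and 1172 and 1117 times in the wild-type libraries. It stood at 82.2 and 83.1 CPM in the mutant and at 88.4 and 90.9 CPM in the wild-type libraries, lower in both mutant libraries (log2 fold change -0.12, SE 0.12, adjusted p = 0.751 by edgeR). CAPRIN1, an RNA-binding protein of neuronal granules and stress granules, was counted 2798 and 3210 times in the mutant and 2786 and 2440 times in the wild-type libraries. At 214 and 238 CPM it was higher in the mutant libraries than at 210 and 199 CPM in the wild-type libraries (log2 fold change 0.14, SE 0.12, adjusted p = 0.652 by edgeR). Leaving out mutant replicate 2 gave 0.07, and leaving out mutant replicate 1 gave 0.22. Transcript lengths were not used, so the ratios and shares above compare libraries and do not show which gene has more transcripts.

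Around these genes, lists of proteins that work with them were examined as a setting. Of 10 genes of the WAVE complex and its activator RAC1, 0 passed by edgeR, DESeq2 or voom, and 1 was under an unadjusted p of 0.05, beside 2.23% and 13.4% of all genes tested. The median log2 fold change was -0.02, and it was -0.06 without mutant replicate 1, -0.05 without mutant replicate 2 and 0.01 without wild-type replicate 1. The gene under that p, WASF1, the neuronal activator of the Arp2/3 complex, had 367 and 352 CPM in the mutant and 320 and 287 CPM in the wild-type libraries (log2 fold change 0.24, SE 0.11, adjusted p = 0.338 by edgeR). WASF3, a relative of WASF1, had 99.9 and 109 CPM in the mutant and 122 and 113 CPM in the wild-type libraries (-0.17, adjusted p = 0.598). ABI3, a subunit enriched in microglia, was counted 20 and 4 times in the mutant and 26 and 19 times in the wild-type libraries (-0.95, SE 0.57, adjusted p = 0.505). Like the sum of microglial markers given above, ABI3 was lowest in mutant replicate 2, where it had only 4 counts. NCKAP1L, another subunit with low abundance, had 2.67 and 2.52 CPM in the mutant and 2.56 and 2.44 CPM in the wild-type libraries (0.05). It thus showed no such drop in mutant replicate 2. The part of microglia in the ABI3 value was not tested.

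Among messenger ribonucleoprotein granule proteins, 1 of 25 tested members rose and 0 fell, where 2.23% of all genes changed, and the median log2 fold change was 0.11 (0.07 without mutant replicate 2). PABPC1, the main cytoplasmic poly(A)-binding protein, had 443 and 449 CPM in the mutant libraries, against 346 and 321 CPM in the wild-type libraries. Its log2 fold change of 0.42 (SE 0.11, adjusted p = 0.0359 by edgeR) did not pass when any 1 library was left out, although the estimate stayed between 0.37 and 0.48 (adjusted p between 0.0932 and 0.242). PABPC1 has processed copies in primate genomes, and the sources used here do not say how reads shared between such copies were counted. YBX1, a cold shock protein that packages mRNA, had 959 and 895 CPM in the mutant and 825 and 608 CPM in the wild-type libraries (0.37, SE 0.13, adjusted p = 0.139). Its estimate was 0.17 without wild-type replicate 2 and 0.61 without wild-type replicate 1, where it passed (edgeR adjusted p = 0.0103). ATXN2L, a granule protein related to ataxin-2, had 154 and 148 CPM in the mutant and 115 and 131 CPM in the wild-type libraries (0.29, SE 0.12, adjusted p = 0.240). G3BP1 and G3BP2, the granule partners of CAPRIN1, had log2 fold changes of 0.09 and 0.12 and did not pass.

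None of 10 genes that act with NUFIP1 in assembling box C/D small nucleolar ribonucleoproteins passed by edgeR, DESeq2 or voom, with 1 under an unadjusted p of 0.05, beside 2.23% and 13.4% of all genes tested. The median log2 fold change of 0.13 became 0.06 without mutant replicate 1. RUVBL2, an AAA+ ATPase, had 71.6 and 53.0 CPM in the mutant and 46.5 and 51.9 CPM in the wild-type libraries (0.34, SE 0.14, adjusted p = 0.279 by edgeR). PIH1D1, an adaptor of the same chaperone complex, had 41.1 and 32.2 against 26.5 and 33.0 CPM (0.30, adjusted p = 0.415), and FBL, the RNA methyltransferase fibrillarin, 58.0 and 44.8 against 45.9 and 39.5 CPM (0.27, adjusted p = 0.439), mutant libraries first. In all 3 genes mutant replicate 1 held the highest value of the 4 libraries.

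Of 17 tested cofactors of FMRP in translation and signalling, 0 passed by edgeR, DESeq2 or voom, with 2 under an unadjusted p of 0.05, beside 2.23% and 13.4% of all genes tested. The median log2 fold change was -0.03, and it was 0.03 without wild-type replicate 2, 0.02 without mutant replicate 1 and -0.10 without mutant replicate 2. DICER1, which cuts microRNA precursors, had 50.1 and 66.0 CPM in the mutant and 69.6 and 75.1 CPM in the wild-type libraries (-0.32, SE 0.14, adjusted p = 0.289 by edgeR). MKNK2, a kinase of eIF4E, had 49.5 and 50.3 against 58.2 and 62.5 CPM (-0.27, adjusted p = 0.360), and MAPK3, the kinase ERK1, 146 and 125 against 118 and 117 CPM (0.20, adjusted p = 0.487), mutant libraries first. EIF4E itself, to which CYFIP1 binds, had 111 CPM in each mutant library and 109 and 101 CPM in the wild-type libraries (0.08, adjusted p = 0.841).

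**Figure D5:**
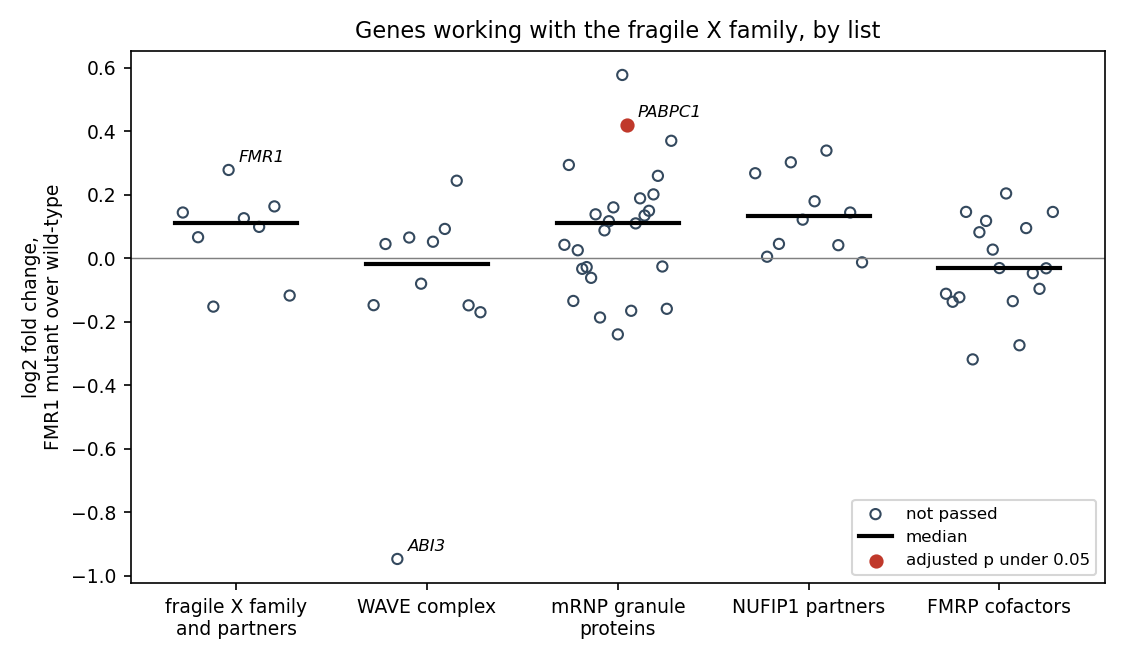
Log2 fold changes, FMR1 mutant over wild-type (vertical axis), of the 8 family and partner genes and of 4 lists of genes that work with them; each circle is a gene and black bars are list medians. The filled circle, PABPC1, is the one gene with an adjusted p under 0.05, and medians lie between -0.03 and 0.13.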

How the data were processed

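RNA-seq libraries were poly(A)-selected and made with a directional kit, per the labels' protocols. Trimmomatic 0.38 and STAR 2.7.10a are named in the submitters' processing notes. How reads were counted, on which genome build and annotation and with which strand setting is, in the sources used here, not given. Whole-number counts per gene, not normalized, were deposited by the authors, and columns were matched to libraries by the names in the labels.

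The fit across all genes used edgeR 4.0.16 (R 4.3.3): filterByExpr at a minimum count of 10 (16956 genes), TMM scaling, the quasi-likelihood test (robust = TRUE) and p-values adjusted by Benjamini-Hochberg over the whole table, called at 0.05. The fit had 2 residual degrees of freedom per gene, beside a median of 31.6 prior degrees of freedom borrowed from the other genes. The SEs, intervals and p-values of edgeR thus rest more on this shared spread than on each gene's own. CPM values are scaled by TMM. The SE is the log2 fold change divided by the square root of F, and intervals are 95%. Ratios had 0.5 counts added before taking log2. Replicates differed by more than sampling noise (chi-square per degree of freedom 6.90 in mutant and 7.28 in wild-type libraries), so each library counted once. The test was tested on simulated data. Alternatives were run with DESeq2 1.42.0, limma 3.58.1 (voom), other scalings and filters, a replicate block and each library left out.

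The 8 genes and the lists were chosen with earlier results of these data known. All 8 are named, with the 3 genes of smallest p per list and every gene called, up to 3 tested neighbours of FMR1 a side and the 5 genes nearest to its profile. NCKAP1L, G3BP1, G3BP2 and EIF4E were named beyond this rule, after their values were seen. SMN1, TUBB3, HBB and HBA1 were not analysed here, and IGF2BP1 had too few counts to be tested.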

Additional observations from a re-analysis of the deposited data

How the results depend on the processing

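Over 88 re-estimated fold changes of the 8 genes, 86 kept their direction. None of the 8 was called under any alternative run, an adjusted p of 0.1 and robust = FALSE included, with FMR1 closest at an adjusted p of 0.0578 without mutant replicate 1. The other 2 changed sign without mutant replicate 2, FMR1 at -0.022 and CYFIP1 at -0.0099. With 1 library left out FMR1 ranged from -0.022 to 0.53 and CYFIP1 from -0.0099 to 0.14. The number of granule genes called was 1, was 2 without a low-count filter (PABPC1 and YBX1), and ranged from 0 to 1 with 1 library left out, the 1 being YBX1 without wild-type replicate 1. Over all genes 378 were called, against 244 by DESeq2 on all rows, 633 without a low-count filter, 624 at an adjusted p of 0.1 and 163 to 562 with 1 library left out. In such fits a lone library is assumed to vary like the other group. With the replicate number as a block, 493 genes were called and 0 of the 8 members (FMR1 0.25, adjusted p = 0.447). Libraries of the same number did not deviate together over all genes (r = 0.03). That value cannot show whether they share a litter or a batch, which the labels do not give. With 1 library left out the difference in log2 ratio, mutant minus wild-type, ranged from -0.42 to 0.16 for FXR1 over FMR1, from -0.49 to 0.18 for FXR2 over FMR1, from -0.11 to 0.06 for FXR2 over FXR1 and from 0.16 to 0.28 for CYFIP1 over CYFIP2. With 2 libraries a group, an estimate below 1.32-fold could not have been called for any of the 8 genes.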
